A study of Mus musculus with 8 samples.

Results

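The cells described here are the 109 cells from dissociated mouse tumours that the authors' deposited annotation calls macrophages, out of 654 annotated cells in 8 libraries, the others being 325 tumour cells, 154 T cells and 66 NK cells. All members were taken by that label and none was removed. The suspensions came from tumours grown for 10 days under the skin of Balb/c mice from 4T1 cells, an established line of mouse mammary carcinoma. For each condition 6 tumour pieces from different mice were pooled and digested for 1 h with a Bacillus licheniformis protease, at 37C in an instrument with heaters or at 4C in one without, and with or without actinomycin D at 2 nM, a drug that blocks transcription. Temperature and instrument therefore cannot be told apart. All suspensions also went through lysis of red cells and removal of debris and dead cells. Each of the 4 suspensions (37C without inhibitor, 37C with actinomycin D, 4C without inhibitor, 4C with actinomycin D) was split into technical aliquots A and B, each of which gave 1 droplet 3′ RNA library. The spread between libraries of a condition is thus the spread between aliquots of 1 suspension, and the p-values below measure no spread between mice or digestions.

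Tumour macrophages derive largely from circulating monocytes that enter the tissue and change their expression there, next to macrophages that settled in the tissue earlier. Freshly arrived cells carry the monocyte genes Ly6c2, Ccr2 and Plac8. Mature ones lose these and gain phagocytic and scavenger genes, among them the C1q chains of complement, the mannose receptor Mrc1 and the lipoprotein gene Apoe. Many tumour macrophages also make arginase (Arg1), which breaks down arginine, or display antigen on MHC class II. Enzymatic digestion at body temperature is known to induce immediate-early transcription factors and cytokines in such cells.

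Of the 109 macrophages, 92 came from the 37C suspensions and 17 from the 4C suspensions. The libraries at 37C without inhibitor held 18 in A and 17 in B, and those at 37C with actinomycin D held 33 in A and 24 in B. The libraries at 4C without inhibitor held 8 in A and 3 in B, and those at 4C with actinomycin D held 1 in A and 5 in B. The summed unique molecules (UMIs) of these cells ranged from 21080 to 54685 per 37C library and from 1269 to 5866 per 4C library, so that a gene at 0 in a 4C library has a wide upper limit. The median macrophage held 1252 and 1007 UMIs at 37C without inhibitor, and 1669 and 1360 at 37C with it, in A and B. At 4C the medians were 594.5 and 501 without inhibitor and 1269 (1 cell) and 609 with it. The mean of these library medians was 1322 ± 275 (SD, n = 4) at 37C and 743 ± 354 (SD, n = 4) at 4C, a difference of 579 UMIs with a two-sided exact permutation p of 0.0857, which misses 0.05. No macrophage barcode was shared between libraries. In 2 macrophage pairs the barcodes of 1 library differed by a single base: 2 cells with mast-cell genes at 37C with actinomycin D, A (2622 and 1133 UMIs), and 2 cells with Cd209a at 37C without inhibitor, B (2888 and 1592 UMIs). All 19 such pairs in the series joined cells of the same annotated type, and only 1 annotated pair differed by 2 bases. Whether such a pair is 1 cell listed under 2 barcodes was not tested; if both macrophage pairs are, the counts of cells below are too high by 2, while the sums of UMIs are the same.

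The 5 marker genes Csf1r, Lyz2, Apoe, C1qa and Arg1 set the class apart from the other 3 types, although the annotation was made from the same cells' expression and the comparison is a description without a test. Lyz2, the lysozyme of myeloid cells, had 1276 UMIs in macrophages against 29 in tumour cells, 11 in T cells and 9 in NK cells. Apoe had 923 against 37, 7 and 1. Arg1 had 864 against 26, 8 and 4. C1qa, a chain of the complement starter C1q, had 228 against 8, 0 and 0, and Csf1r, the receptor of the macrophage growth factor, had 127 against 7, 1 and 1. At least 1 UMI was seen for Lyz2 in 74.3% of the macrophages, for Apoe in 72.5%, for Arg1 in 60.6%, for Csf1r in 56% and for C1qa in 28.4%. In T cells, which should lack Lyz2, 5.84% held a Lyz2 UMI at a median of 503.5 UMIs per cell, against a median of 1133 in macrophages. By cell, 86 held at least 2 of the 5 markers, 11 held 1 and 12 held none.

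The number of markers per cell is given by temperature as a description of pooled cells, without a test over libraries. At 37C, 79 of 92 cells held at least 2 of the 5 markers (85.9%, exact 95% interval 77.1 to 92.3%), and at 4C 7 of 17 did (41.2%, 18.4 to 67.1%). With every cell thinned to 300 UMIs, leaving out 11 cells at 37C and 3 at 4C, the shares were 70.4% and 42.9%, and the intervals overlapped. By library the unthinned share was 83.3%, 76.5%, 90.9% and 87.5% at 37C, and 50% of 8 cells, 33.3% of 3, 100% of 1 and 20% of 5 at 4C, so the groups of libraries overlapped. Intervals cover counting error only. Csf1r gave 126 UMIs at 37C and 1 UMI in the 17 cells at 4C. The C1qa UMIs at 4C, 7 in all, came from the A library without inhibitor. Of the 18 genes in the wider macrophage list, all had at least 1 UMI in the class, with Mertk, a receptor for dead cells, at 3 UMIs and Adgre1, which encodes F4/80, at 19.

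Among the 20 named genes with the highest ratio of macrophage level to the highest of the other 3 types, in counts per 1000000 UMIs (CPM) and with at least 30 UMIs in macrophages, Apoe led with 97.8-fold and Arg1 followed with 75.3-fold. The list went on with the platelet factor gene Pf4 (at least 54.4-fold), Lyz2 (49.4-fold), the chemokine genes Ccl6 (38.9-fold), Ccl7 (at least 36.4-fold), Ccl9 (at least 34.9-fold), Ccl24 (at least 31.8-fold) and Ccl8 (at least 25.2-fold), and with Mrc1 (at least 31.8-fold), Ms4a6d (at least 30.3-fold), the 3 C1q chains (C1qc at least 29.5-fold, C1qa at least 26.5-fold, C1qb at least 25.3-fold), H2-Aa (26.1-fold) and H2-Ab1 (24.7-fold). The bound "at least" marks genes with fewer than 3 UMIs in the type compared, which was set at 3. The 4 remaining genes were the mast-cell protease genes Tpsab1 (72.7-fold), Cma1 (59-fold), Tpsb2 (at least 54.7-fold) and Cpa3 (at least 40-fold). Their place rested on few cells: Cma1 and Cpa3 were seen in 7 cells each, Tpsb2 in 8 and Tpsab1 in 11, and the 5 richest cells held 88.4% of the Cma1 UMIs and 96.6% of the Tpsab1 UMIs. For Apoe that share was 26.3%. These 4 genes therefore describe a minority within the label, taken up below.

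**Figure D1:**
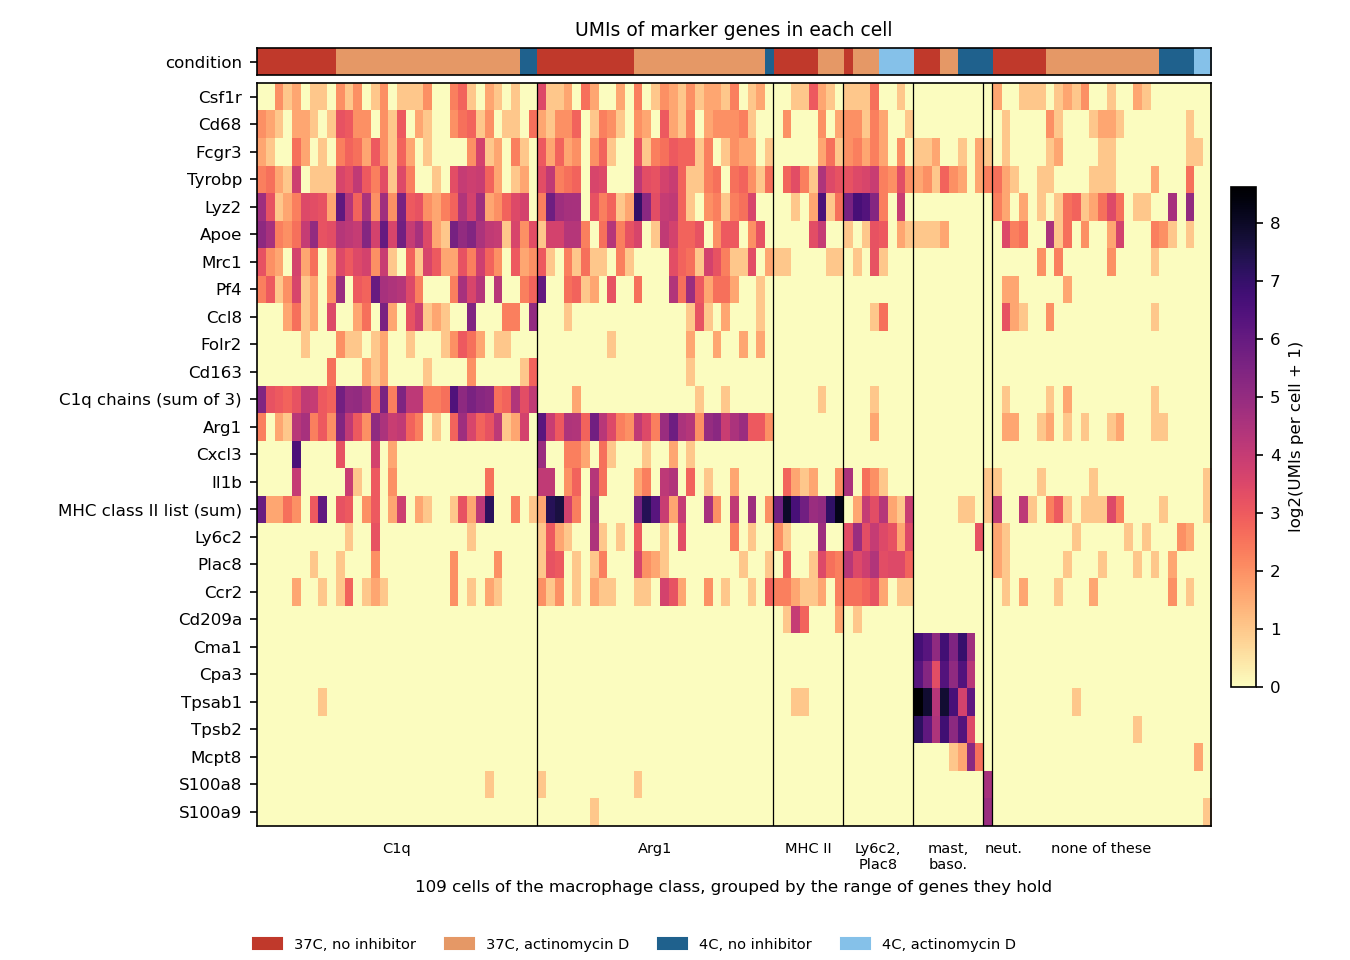
UMIs of marker genes (rows) in each of the 109 cells (columns), coloured as log2(UMIs + 1), with the digestion condition in the top strip; columns are grouped by the gene ranges described in the text. The 32 cells with C1q hold most C1q, Mrc1 and Pf4 UMIs, and Cma1 and Cpa3 appear in 7 cells that lack Lyz2 and Arg1.

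C1q divided the cells. Summed over C1qa, C1qb and C1qc, 68 cells had 0 UMIs, 9 had 1 or 2, none had 3 and 32 had between 4 and 86. The ranges of cells used from here on were drawn from such thresholds after the values were seen. They are ranges and not cell types, and the genes that define them are no result. The 32 cells at 3 or more C1q UMIs were compared with the 68 below it that had no mast-cell, basophil or neutrophil genes. Apoe was seen in 32 of 32 against 43 of 68, Mrc1 in 28 against 31, and Pf4 in 24 against 19. The scavenger receptor gene Cd163 was seen in 8 of 32 against 1 of 68, and the folate receptor gene Folr2 in 14 against 5. These genes, commonly used for resident-like macrophages, were thus seen more often in cells with C1q. The C1q cells also had a higher median depth, 1288 against 819 UMIs, whose part in these counts was not tested. The monocyte genes Ly6c2, Plac8 and Ccr2 ran the other way despite that depth: Ly6c2 was seen in 3 of 32 against 30 of 68, Plac8 in 5 against 32, and Ccr2, the receptor for Ccl2, in 11 against 36. Il1b was seen in 6 against 26. The 14-gene monocyte-like list was not uniform in this. Its member Fn1 was seen in 22 of the 32 C1q cells. In the ranges given below it was seen in 81.5% (Arg1), 12.5% (MHC class II), 50% (Ly6c2 and Plac8) and 60% (no range) of cells. Arg1 crossed the divide, with at least 3 UMIs in 23 of the 32 cells and in 27 of the 68. Lyve1 and Timd4, which mark long-lived resident macrophages in several tissues, had 0 UMIs in all 109 cells, where the 148494 UMIs sequenced leave room for a low level. The nonclassical monocyte list had 23 UMIs in 12 cells over the whole class.

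C1qa, C1qb and C1qc lie next to each other on chromosome 4 of GRCm38 (136895917 to 136898803, 136880129 to 136886187 and 136889804 to 136893065, all on the minus strand). Within the 32 cells chosen by their sum, C1qa was seen in 30, C1qb in 28 and C1qc in 31. The start regions of 2 of them, from RefSeq (GRCm38.p6, 250 bases before to 50 after the start), are shown because these chains define that range of cells, with capitals for GAGGAA on either strand (TTCCTC is its reverse complement), the core bound by the myeloid factor PU.1. The windows are chr4:136886151-136886450 for C1qb and chr4:136892865-136893164 for C1qc, both minus strand, 5′ to 3′.
C1qb: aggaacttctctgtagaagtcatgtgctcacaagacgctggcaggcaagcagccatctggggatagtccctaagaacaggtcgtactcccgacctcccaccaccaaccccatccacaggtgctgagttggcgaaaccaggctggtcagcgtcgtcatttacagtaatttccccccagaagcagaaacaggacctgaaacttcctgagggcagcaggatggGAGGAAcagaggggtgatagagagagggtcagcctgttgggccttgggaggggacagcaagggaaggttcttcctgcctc
C1qc: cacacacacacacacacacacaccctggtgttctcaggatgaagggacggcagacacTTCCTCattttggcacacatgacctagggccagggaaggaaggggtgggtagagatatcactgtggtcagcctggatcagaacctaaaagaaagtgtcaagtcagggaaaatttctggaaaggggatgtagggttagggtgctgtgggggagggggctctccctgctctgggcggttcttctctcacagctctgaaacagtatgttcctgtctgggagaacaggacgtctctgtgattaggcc
The match began 30 bases before the start in C1qb and 193 bases before it in C1qc, and 28.3% of the 32851 windows of this length in the table held the motif. A match is a description of the letters and not a site of binding.

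Among the other cells, 27 held at least 3 Arg1 UMIs with fewer than 3 C1q UMIs, a range called Arg1 without C1q below. They held 397 Lyz2 UMIs, or 8806 CPM, close to the 7728 CPM of the C1q cells, and had Fn1 (fibronectin) in 22 of 27, against 22 of 32 C1q cells. Spp1, the matrix protein osteopontin, was seen in 11 of the 27 and in 18 of the 32, and Mmp12, a macrophage elastase, gave 1 UMI in the former and 54 in the latter. Spp1 was at 2481 CPM in tumour cells, where 70.8% of cells held it, above its 1374 CPM in macrophages. Whether its UMIs in macrophages came from free RNA was not tested. Cxcl3, a neutrophil attractant, was seen in 13 cells in all, 9 of that range and 4 of the C1q cells, and their UMIs ranged from 1 to 95 per cell. High MHC class II was a further axis. Of the 19 cells with at least 20 UMIs of the 7-gene MHC class II list (the highest had 301), all came from 37C. Among them 16 held a Ccr2 UMI, 3 held at least 3 C1q UMIs and 8 had no Arg1 UMI. That threshold is on raw UMIs, and the 19 cells had a median of 2227 UMIs, against 568 for the cells at 4C. At least 1 UMI of the list was seen in 64.1% of the cells at 37C and 64.7% of those at 4C. The list made up 1.02% to 2.49% of the UMIs of the 37C libraries and 0.119%, 0.0737%, 1.5% and 0.68% of those of the 4C libraries, the third of which held 1 cell. The 8 of them without C1q or Arg1 in these amounts held 286 of the 553 H2-Aa UMIs at 17170 CPM, 5 of 8 with a Csf1r UMI. Cd209a, a lectin of monocyte-derived dendritic cells, gave 25 UMIs in 5 cells, of which 15 and 6 came from the pair with near-identical barcodes. The dendritic-cell list had 31 UMIs in 8 cells, with Ccr7 at 0 and Flt3 at 3 UMIs, and 5 of its 9 genes had no UMI in the class. Lastly, 19 cells held at least 5 UMIs of Ly6c2 and Plac8. The range of that name is made of the 8 of them that fell in no other range. Of these, 6 held Lyz2, at 22680 CPM over the 8, against 6062 to 8806 CPM in the 3 ranges above. Ccr2 was seen in 7 of the 8 and Fn1 in 4. The remaining 25 cells fell in no range. Their median was 320 UMIs, and 18 of them held at least 2 of the 5 markers.

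Cells of other lineages were present under the label. In 8 cells the mast-cell and basophil list (Cpa3, Cma1, Mcpt8, Prss34, Fcer1a, Ms4a2, Gata2 and Kit) summed to 6, 53, 84, 92, 129, 207, 218 and 221 UMIs, and the next cell had 3. They held all 508 Cma1 UMIs (chymase) and all 344 Cpa3 UMIs (carboxypeptidase of mast-cell granules), as well as 64 of the 65 Fcer1a UMIs (a chain of the IgE receptor). Lyz2, Arg1, Csf1r and every C1q chain were at 0 in all 8, and none held 2 of the 5 markers. Tyrobp, a signalling adaptor of many myeloid cells, was seen in 7 of them. Cma1 and Cpa3 were seen in 7 of the 8, and the eighth, at 4C without inhibitor, B, held 5 UMIs of the basophil protease gene Mcpt8 with Cma1 and Cpa3 at 0. At 4C without inhibitor, A, 1 cell held both kinds of protease gene, with 37 Mcpt8, 26 Cma1, 18 Cpa3 and 70 Tpsab1 UMIs, and whether that barcode held 2 cells was not tested. A further cell, at 4C without inhibitor, B, carried the neutrophil genes S100a9 (28 UMIs) and S100a8 (23 UMIs) among 298 UMIs, with Csf1r, Lyz2, Apoe and Arg1 at 0. Of the 17 cells at 4C, 4 were of these kinds (3 and 1), against 5 of 92 at 37C. In 2 cells at 4C with actinomycin D, B (609 and 769 UMIs), Klk1 (3 and 14 UMIs), Irf8 (7 and 5) and Cox6a2 (3 and 3) were seen with Ly6c2 and Plac8, without Lyz2 or Arg1, and with Siglech at 0. Those genes were picked after the values were seen and the cells are given no name.

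The start region of Cpa3 (chr3:20242132-20242431, minus strand) is shown beside that of Cma1 (chr14:55944626-55944925, minus strand), as the pair of genes that these cells shared, with capitals for AGATAA on either strand, a form of the motif of GATA factors such as Gata2. Gata2 was seen in all 8 cells, with 19 of its 21 UMIs. It is a member of the list by which these cells were chosen, so this count is no further result.
Cpa3: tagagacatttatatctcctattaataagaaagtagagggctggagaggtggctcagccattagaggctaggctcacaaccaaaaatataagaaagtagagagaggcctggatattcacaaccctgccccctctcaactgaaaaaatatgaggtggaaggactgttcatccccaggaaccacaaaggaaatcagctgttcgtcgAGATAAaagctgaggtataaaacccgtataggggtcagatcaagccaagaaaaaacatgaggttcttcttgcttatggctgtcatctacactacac
Cma1: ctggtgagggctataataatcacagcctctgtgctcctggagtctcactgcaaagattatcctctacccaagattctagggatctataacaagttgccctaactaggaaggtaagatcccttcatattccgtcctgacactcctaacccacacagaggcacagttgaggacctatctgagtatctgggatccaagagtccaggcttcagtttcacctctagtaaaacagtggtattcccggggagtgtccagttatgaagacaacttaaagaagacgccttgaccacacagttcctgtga
The match began 46 bases before the start of Cpa3, and 11.2% of the windows in the table held the motif. The Cma1 window held neither motif, which says only that these letters are not in it.

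Markers of the 3 other annotated types were nearly absent. The T-cell list had 14 UMIs in 10 cells, the NK-cell list 24 UMIs in 15 cells and the tumour epithelial list 12 UMIs in 7 cells. Cd3g, Ncr1 and Krt18, which had 111 UMIs in T cells, 33 in NK cells and 650 in tumour cells, were at 0. The fibroblast list had 2 UMIs and the B-cell list 9, while the 5 genes of the erythroid list were not among the genes measured here.

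**Figure D2:**
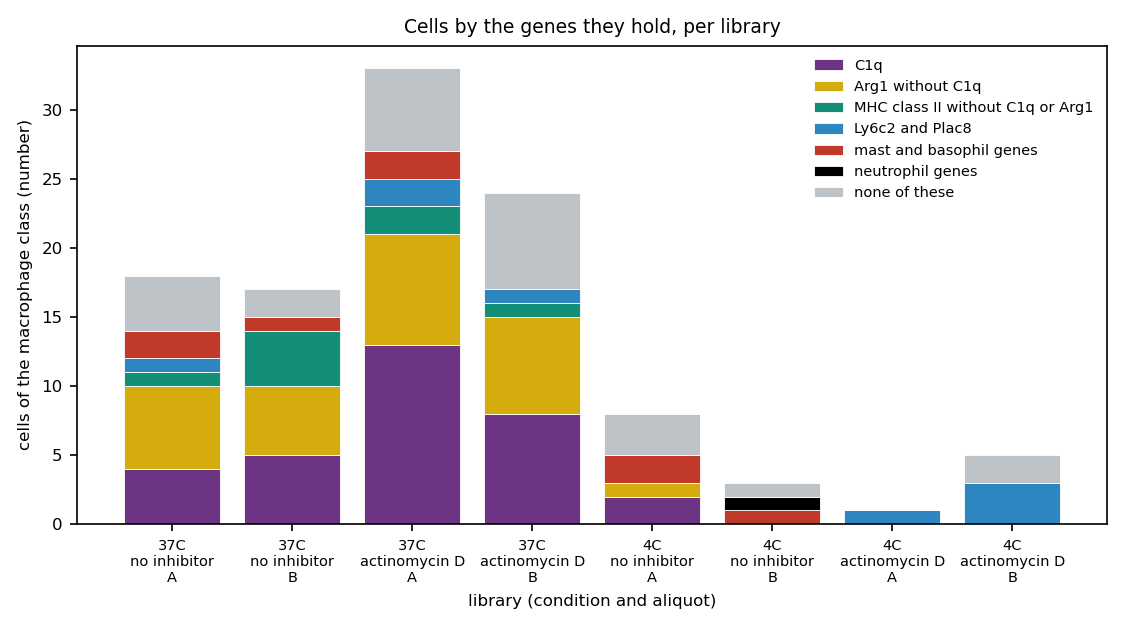
Number of cells of the macrophage class in each library (condition and aliquot), stacked by the range of genes they hold. Cells with C1q number 4 and 5 at 37C without inhibitor, 13 and 8 at 37C with actinomycin D, 2 and 0 at 4C without inhibitor and 0 in both libraries at 4C with it.

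The ranges were spread unevenly over the libraries. C1q cells were 4 of 18 and 5 of 17 at 37C without inhibitor and 13 of 33 and 8 of 24 at 37C with it, that is 25.7% (exact 95% interval 12.5 to 43.3%) and 36.8% (24.5 to 50.7%) of the pooled cells. These intervals overlapped, and the difference over libraries was not tested. Cells of the range Arg1 without C1q were 6 and 5 without inhibitor and 8 and 7 with it. Both ranges were thus present in all 4 libraries at 37C. At 4C without inhibitor, A held 2 C1q cells and 1 Arg1 cell, and B held neither. All 4 cells of the Ly6c2 and Plac8 range at 4C lay in the libraries with actinomycin D, where they were 4 of the 6 cells. The cells with Klk1 were 2 of them. This range leaves out cells that reached its threshold but were placed in another range first. Among those at 4C without inhibitor, B, was the cell with basophil genes, with 8 Ly6c2 UMIs. At 37C with actinomycin D, A, another had 37 UMIs of Ly6c2 and Plac8 and high MHC class II.

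The comparison of actinomycin D with no inhibitor at 37C asks which transcripts are made during the digestion itself. No gene of 582 tested passed an adjusted p of 0.05 (0% called; edgeR quasi-likelihood test on summed counts of 2 libraries against 2, Benjamini-Hochberg). By the same tool 57 genes had an unadjusted p under 0.05, against 29 with the DESeq2 Wald test, which also called 0. The levels below are therefore values and not calls, in CPM per library. In 99 genes (17% of those tested) both libraries with inhibitor lay below both without, and in 157 genes (27%) both lay above.

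Genes with the smallest p on the lower side included Nfkbia, Pde4b, Trib1 and Fosl2. Nfkbia, the inhibitor of NF-kB that NF-kB itself induces, was at 1298 and 901 CPM without inhibitor and at 165 and 173 CPM with it (35, 19, 9 and 6 UMIs), a log2 difference of -2.81 ± 0.39 (SE) with an edgeR adjusted p of 0.152. The libraries of each condition stood well apart from those of the other. Trib1, a pseudokinase gene, was at 334 and 332 CPM against 36.6 and 28.9 CPM, from 19 UMIs in all. Pde4b, a cyclic AMP phosphodiesterase, was at 408 and 474 against 54.9 and 28.9 CPM, and Fosl2, a member of the AP-1 family, at 482 and 427 against 73.2 and 86.6 CPM. In these 4 genes the groups did not overlap. The genes were picked by their small p in this same comparison, so the gap is no further support, and 99 of the 582 genes lay this way.

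Of the immediate-early list, 6 of 23 genes were tested and none was called. Their median log2 difference was -2.10, against -0.04 over all 582 genes, and in 6 of 6 both libraries with inhibitor lay below both without, where 17% of all genes did so. The filter admitted genes with enough counts in a pair of libraries. Members such as Nr4a1 and Fosb were thus tested only through the libraries without inhibitor, where they were high. The 6 of 6 and the median therefore describe the genes admitted and support nothing about the list, a limit shared by the lists below. Nr4a1, an orphan nuclear receptor induced within minutes, was at 779 and 427 CPM without inhibitor and at 110 and 86.6 CPM with it. Fosb, of the AP-1 family, was at 593 and 332 against 73.2 and 0 CPM (16, 7, 4 and 0 UMIs). Junb was at 1224 and 569 against 146 and 347 CPM. The list as a whole made up 0.708% and 0.593% of the macrophages' UMIs without inhibitor and 0.21% and 0.214% with it. Some other genes of this class were sparse here: Fos gave 20 UMIs and Egr1 1 UMI in all macrophages, against 252 and 52 in tumour cells. These are raw sums out of 148494 UMIs in macrophages and 582389 in tumour cells. Over all libraries the whole list made up similar shares, 0.364% of the UMIs of macrophages and 0.382% of those of tumour cells. Within the C1q cells alone the list's share was 0.467% and 0.378% without inhibitor and 0.115% and 0.155% with it, and within the Arg1 cells without C1q it was 0.472% and 0.487% against 0.242% and 0.333%. The libraries did not overlap in either range of cells.

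Of the inflammatory NF-kB list, 7 of 18 genes were tested, none was called and the median log2 difference was -1.43, with both libraries below in 4 of 7. Il1b, the interleukin-1 beta gene, was at 2373 and 2419 CPM without inhibitor and at 1463 and 404 CPM with it. Cxcl3 was at 1409 and 4791 against 475 and 0 CPM, but those values rested on few cells. The list's share in all macrophages was 1.02% and 1.32% against 0.428% and 0.269%. Within the C1q cells it was 0.212% and 2.83% against 0.384% and 0.193%, which overlap, so that the split of this list was not seen in every range of cells. The MHC class II list had 6 of 7 genes tested, none called, a median of -0.74 and both libraries below in 3 of 6. H2-Aa was at 5043 and 7827 CPM without inhibitor and at 1810 and 4274 CPM with it.

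On the higher side the 5 genes with the smallest p were C1qc, Dmkn, Atp6v1a, Ccl8 and Iigp1. C1qc was at 556 and 901 CPM without inhibitor and at 1975 and 3004 CPM with it, a log2 difference of 1.67 ± 0.38 (SE) with an edgeR adjusted p of 0.217. C1qb was at 890 and 569 against 1536 and 2542 CPM, and C1qa at 964 and 996 against 1701 and 2339 CPM. All 3 chains were higher in both libraries with inhibitor, where C1q cells were also a larger part of the cells counted; the part of that in these values was not tested. Ccl8 was at 519 and 854 against 1701 and 1588 CPM. Dmkn gave 35 UMIs in 7 cells, 17 of them in 1 cell, and its level with inhibitor rests on those. The resident-like list had 6 of 14 genes tested, none called and a median of 0.55, with both libraries above in 3 of 6 where 27% of all genes did so. Csf1r, at 1001 and 901 against 805 and 1040 CPM, and Arg1, at 5637 and 6831 against 5925 and 6585 CPM, overlapped between conditions. Apoe was at 5674 and 5455 against 7095 and 6931 CPM, without overlap but with an edgeR adjusted p of 0.7771. Lyz2 was at 8381 and 2751 against 13276 and 5199 CPM, higher in A than in B in both conditions.

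**Figure D3:**
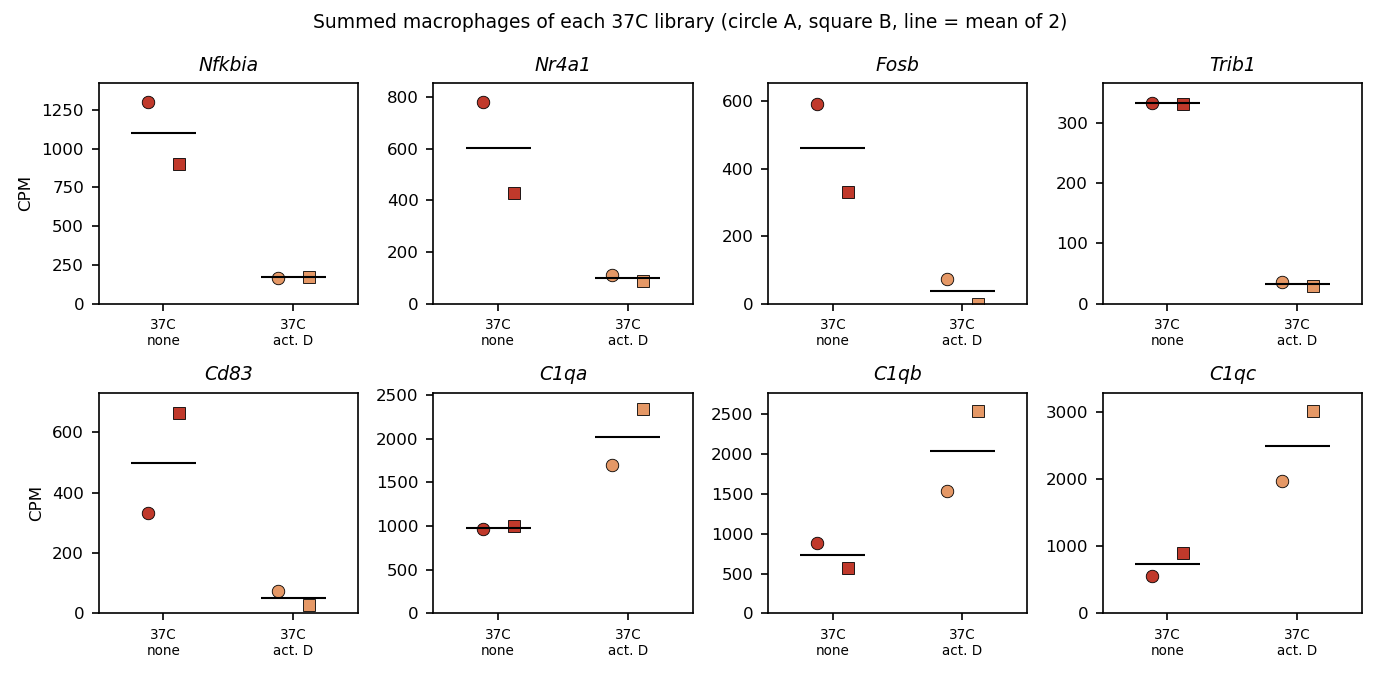
CPM of 8 genes in the summed macrophages of each 37C library (circles aliquot A, squares aliquot B, bars the mean of 2). Nfkbia, Nr4a1, Fosb, Trib1 and Cd83 lie lower, and C1qa, C1qb and C1qc higher, in both libraries with actinomycin D; no gene passed the test across all genes.

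Leaving out a library moved the count of called genes from 0 to between 5 and 36. The lone library of a condition was in these runs assumed to vary like the pair of the other. Without the A library at 37C without inhibitor 32 genes were called, and without its B library 36. Without the A library with inhibitor 18 were called, and without its B library 5.

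The comparison of 37C with 4C used the 7 libraries that held at least 3 macrophages (16 cells at 4C), with 137357 UMIs at 37C and 9868 at 4C. At 4C with actinomycin D only library B was left (5 cells, 2646 UMIs). It counted in the 4C mean as much as the libraries without inhibitor together. Its own spread was unknown and assumed to be like that of the other conditions. Of 981 genes tested, 25 were called (2.55%): 24 were higher at 37C (2.45% called) and 1, Mcpt8, was lower (0.102% called; edgeR quasi-likelihood test, Benjamini-Hochberg). The called genes included the macrophage genes Csf1r, Arg1, Apoe, Cd14, Aif1, Mrc1 and Pf4, the chemokine genes Ccl2, Ccl7 and Ccl24, the MHC class II genes H2-Aa, H2-Ab1 and H2-Eb1, and the interleukin genes Il1b and Il1rn. These calls depended on the cells counted: without the 9 cells with mast-cell, basophil or neutrophil genes, a choice made after seeing the data, 0 of 752 genes were called by edgeR (175 at an unadjusted p under 0.05). Of the 25, 24 were still tested and kept their direction. That is no support for the calls, as 788 of all 981 genes were above 0 in the main fit. The median log2 value without those cells was 1.53. Leaving out 1 library gave between 2 called genes (without 4C with actinomycin D, B) and 94 (without 4C without inhibitor, A); the count was 6 and 9 without B and A at 37C with actinomycin D, 8 without B at 37C without inhibitor and 12 without B at 4C without inhibitor. With aliquots summed to 4 suspensions 2 genes were called, both lower at 37C. The fitted differences were also displaced, with a median log2 value of 1.54 over all 981 genes, whereas the pooled counts gave -0.16 with genes at 0 set to 3 counts. Folds below are therefore from pooled counts, with exact 95% counting intervals. The adjusted p-values given with them come from the edgeR fit. They belong to the fitted differences and do not measure the pooled folds.

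Arg1 gave 848 UMIs at 37C and 16 at 4C, a 3.81-fold higher pooled level at 37C (interval 2.33 to 6.69). All 16 came from the A library without inhibitor, and the other 4C libraries had 0. The edgeR fit, with an adjusted p of 0.0105, put Arg1 at a log2 difference of 6.16, far above the pooled fold. Csf1r gave 126 UMIs against 1, 9.05-fold (1.6 to 360; adjusted p = 0.0387), and Apoe 896 against 20, 3.22-fold (2.07 to 5.29; adjusted p = 0.0493). Ccl7, which attracts monocytes through Ccr2, gave 311 against 0, at least 7.45-fold with 4C set at 3 counts over the group (adjusted p = 0.00363); its only UMIs at 4C, 2, were in the single cell of the library left out. Ccl2 gave 326 against 2, 11.7-fold (3.22 to 97.1). Mt1 (metallothionein), Emp1, Thbs1, Il1rn, Rps7, Erp29 and Aif1, the other genes with the largest fitted differences, were at 0 in the 3 libraries at 4C used in the test and at least 2.2-fold to 3.28-fold higher at 37C by that floor. The single cell of the library left out held 3 UMIs of Il1rn, 3 of Aif1 and 1 of Emp1, which put Il1rn and Aif1 at 2364 CPM there, above each 37C library. That cell also held 7 UMIs of Apoe, at 5516 CPM, above the 5455 CPM at 37C without inhibitor, B. Its 4 UMIs of H2-Ab1 were at 3152 CPM, above the 2706 CPM at 37C with actinomycin D, A. The 4 cells at 4C with mast-cell, basophil or neutrophil genes held 3801 of the 9868 UMIs at 4C and no Arg1, Csf1r or Lyz2. Without these and the 5 such cells at 37C the ratio was 2.52 for Arg1 (1.54 to 4.43), 2.12 for Apoe (1.36 to 3.48), 5.99 for Csf1r (1.06 to 238), 6.51 for H2-Aa (2.53 to 24), at least 4.56 for Ccl7 and 13.3 for Ccl2 (2.36 to 526). The bounds of the 7 genes at 0 then lay between 1.38-fold and 2.14-fold.

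By list, the MHC class II list had 3 of 6 tested genes called higher, the monocyte-attracting chemokines 3 of 6, the macrophage list 3 of 17, the resident-like list 2 of 7, the monocyte-like list 2 of 10 (Fn1 and Thbs1), the arginase and lipid-associated list 2 of 7 (Arg1 and Spp1) and the inflammatory list 2 of 10. H2-Aa gave 548 UMIs at 37C and 4 at 4C, 9.84-fold (3.82 to 36.3). None was called of 13 lysosome, 11 immediate-early, 8 hypoxia and glycolysis or 6 interferon genes. Over all 981 genes 24 were called higher (2.45%), so that no call in lists of this size says little about them. With those cells included, the median pooled log2 fold was 2.39 for MHC class II, 1.78 for the arginase list, 1.74 for the chemokines, 0.85 for the macrophage list, 0.30 for the lysosome list and -0.10 for the immediate-early list, against -0.16 over all genes. It was -0.39 for the monocyte-like list, -0.52 for the resident-like list and -2.54 for the mast-cell and basophil list. The fitted medians had the opposite sign for these lists (0.54, 3.10 and 2.67) and for the immediate-early list (3.12).

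Lyz2 did not follow these genes in its pooled level. It was at 8664 CPM at 37C and 8310 CPM at 4C, a ratio of 1.04 (0.833 to 1.32), with 36, 32 and 14 UMIs in the 4C libraries used, and it did not pass the test (edgeR adjusted p = 0.5918). Those 82 UMIs lay in 4 cells. A Lyz2 UMI was seen in 82.6% of the cells at 37C and in 29.4% of those at 4C, or in 63% and 28.6% with cells thinned to 300 UMIs, so the share of cells went against the pooled level and no order is read from it. Without the cells with mast-cell, basophil or neutrophil genes the ratio was 0.69 (0.551 to 0.874). Ly6c2 gave 33 UMIs at 4C, 2.8-fold the pooled level at 37C (1.87 to 4.09), and Plac8 29 UMIs, 2.78-fold (1.8 to 4.17), but neither passed the test (edgeR adjusted p = 0.2785 and 0.8105). The cell with basophil genes at 4C without inhibitor, B, held 8 of these Ly6c2 UMIs. Without those cells Plac8 was at 1136 CPM at 37C and 4780 CPM at 4C, and Ly6c2 at 1285 and 4121 CPM. Those values still included the 2 cells with Klk1 at 4C with actinomycin D, B. These 2 cells held 10 and 8 Ly6c2 UMIs and 6 and 10 Plac8 UMIs, so the levels at 4C rested on few cells. Of the Ly6c2 UMIs in 4C libraries 3 and 10 came without and 10 and 20 with actinomycin D, in A and B. Ccl8 gave 32 UMIs at 4C, all from the A library without inhibitor, which held both C1q cells at 4C; 5 more lay in the library left out. The mast-cell list made up 5.2% of the UMIs of that library and between 0% and 0.442% in the other 3 at 4C, against 0.00578% to 1.25% at 37C. Mcpt8, the gene called lower at 37C, gave 1 UMI there against 46 in the 4C libraries, and 44 of those 46 lay in the 2 libraries without inhibitor. Its UMIs came from 5 cells in all.

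**Figure D4:**
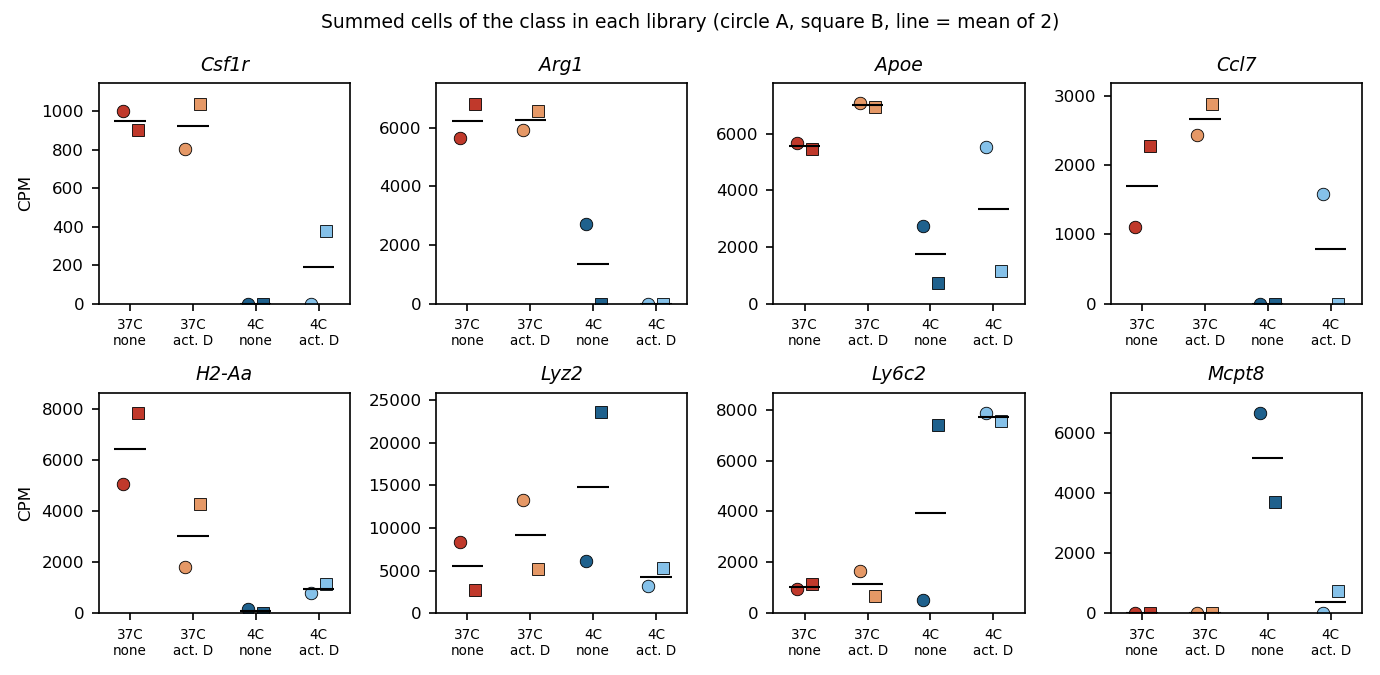
CPM of 8 genes in the summed cells of the macrophage class in each of the 8 libraries (circles aliquot A, squares aliquot B, bars the mean of 2; 4C libraries hold 8, 3, 1 and 5 cells). Csf1r, Arg1 and H2-Aa lie lower in every 4C library than in any 37C library, and Lyz2 and Apoe overlap between temperatures. Ly6c2 is high in 3 of the 4C libraries, and Mcpt8 is high at 4C without inhibitor.

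The effect of actinomycin D at 37C was also set against that in the tumour cells of the same libraries, in 1 fit with an interaction term. That fit had no term for the library, so the macrophage and tumour-cell sums of a library entered as if independent. The count of calls with such a term is given at the end. Of 2195 genes, 2 were called (0.0911%), both with a lower value in macrophages relative to tumour cells: H2-Aa and H2-Ab1, the alpha and beta chains of the MHC class II molecule I-A (GRCm38 chromosome 17, 34282744 to 34287823 and 34257689 to 34269419). H2-Aa in macrophages was at 5043 and 7827 CPM without inhibitor and at 1810 and 4274 CPM with it. In tumour cells it was at 45.8 and 35.4 CPM without (4 and 4 UMIs) and at 195 and 220 CPM with inhibitor (23 and 33 UMIs). The log2 effect in macrophages minus that in tumour cells was -3.49 ± 0.58 (SE; edgeR adjusted p = 0.00402), with lower values in macrophages and higher ones in tumour cells. For H2-Ab1 it was -2.60 ± 0.48 (adjusted p = 0.00888), with 5637 and 6831 against 2706 and 4217 CPM in macrophages and 91.6 and 53.1 against 263 and 200 CPM in tumour cells.

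In tumour cells H2-Aa stayed near the level of single molecules. It was seen in 3 of 41 and 2 of 67 tumour cells without inhibitor and in 14 of 55 and 14 of 76 with it, with at most 7 UMIs in a cell. In barcodes of each library with 50 UMIs or fewer, taken as a measure of free RNA, H2-Aa was at 725 and 723 CPM without and at 1026 and 1280 CPM with inhibitor, above its level in tumour cells, and its part in the tumour-cell values was not tested. Lyz2, which tumour cells should lack, was at 22.9 and 8.85 CPM in tumour cells without inhibitor and at 76.3 and 100 CPM with it. Of the MHC class II list, 6 of 7 genes were tested and all 6 had values below 0, with a median of -2.38 against -0.08 over all genes. Values below 0 were found for 1170 of the 2195 genes. They were common in other macrophage genes too: 16 of 17 in the macrophage list (median -1.54) and 6 of 7 monocyte-attracting chemokines (median -1.11). The arginase and lipid-associated list had 3 of 8 below 0 (median 0.19). No gene of the immediate-early list (21 tested), the inflammatory list (12) or the macrophage list (17) was called, where 0.0911% of all genes were. Without the B library at 37C without inhibitor, no gene was called by edgeR in this comparison (130 at an unadjusted p under 0.05), and without either A library 6 were.

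**Figure D5:**
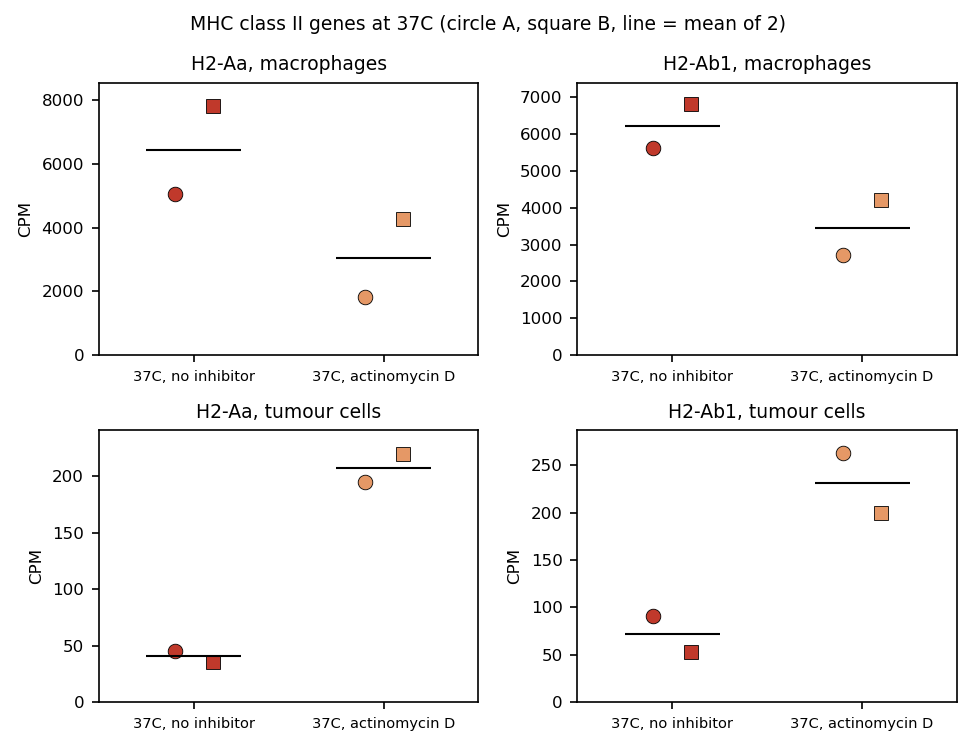
CPM of H2-Aa and H2-Ab1 in summed macrophages (top) and tumour cells (bottom) of each 37C library, each panel with its own axis from 0 (circles aliquot A, squares aliquot B, bars the mean of 2). Both genes lie lower in macrophages and higher in tumour cells with actinomycin D.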

How the data were processed

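Per the submitters' processing notes, the authors used UMI-tools, STAR 2.7.1a, featureCounts 1.6.0, SAMtools and Seurat with GRCm38. The deposited tables hold raw UMI counts per gene and barcode for each of the 8 libraries, and 17520 of 17580 identifiers matched a symbol. A further deposited table holds the authors' natural log expression values of 6933 genes. Undoing ln(1 + x) gave 10000 per cell, and 99.9915% of the values above 0 in macrophages were proportional to the raw count within 0.001, so raw counts were used throughout. Macrophages were the barcodes given that name in the authors' annotation, and no doublet caller was run.

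Counts were summed per library. The 3 comparisons used edgeR 4.0.16 in R 4.3.3 (TMM, filterByExpr, quasi-likelihood test, two-sided, Benjamini-Hochberg over all genes tested, threshold 0.05), with DESeq2 1.42.0 as an alternative. Temperature was averaged over inhibitor states. CPM are per 1000000 UMIs of the summed cells. Exact permutation tests over libraries were two-sided, and 4 against 4 libraries have 70 arrangements. Intervals are exact (Clopper-Pearson for shares, 95%), and a gene at 0 was set at 3 counts over the group. The fits were tested on simulated counts. Python 3.11.15, SciPy 1.17.1 and pandas 2.3.3 were used.

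The members and all gene lists were chosen with earlier results of these data known. Named genes were the 10 largest fitted differences in each direction among called genes, the 5 smallest p in each direction where none was called, the 20 highest ratios to other types, and list members. A gene that this rule names is not reported here. Letters A and B were not treated as pairs: deviations of same-letter libraries correlated at 0.26 for inhibitor against none, and at 0.22, 0.06 and 0.1 for the groups in the temperature comparison. Libraries shared 4 to 19 listed barcodes with each other.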

Additional observations from a re-analysis of the deposited data

Results flagged for a closer look

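In 2 genes the effect of actinomycin D at 37C differed between macrophages and tumour cells of the same libraries by a test of the difference itself, the interaction term of the edgeR quasi-likelihood fit. The log2 effect in macrophages minus that in tumour cells was -3.4852 for H2-Aa and -2.5958 for H2-Ab1. In both genes the 2 macrophage values with inhibitor lay below the 2 without, and the 2 tumour-cell values with inhibitor lay above the 2 without. The tumour-cell values rested on at most 33 UMIs of H2-Aa and 31 of H2-Ab1 per library, and the level of both genes in low-count barcodes was higher with inhibitor as well.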

How the results depend on the processing

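For actinomycin D at 37C in macrophages, 4 genes were called with no filter on low counts, 1 with at least 20 counts and between 5 and 36 when 1 library was left out, against 0. For 37C against 4C the count of 25 became 7 with DESeq2 size factors, 98 with no filter, 46 without macrophages holding T, NK or tumour markers, 0 of 19 genes tested with libraries thinned to the smallest total (1 at an unadjusted p under 0.05), 12 with all libraries, 12 with libraries of at least 5 macrophages, 2 with aliquots summed to 4 suspensions, 0 without mast-cell, basophil and neutrophil cells, and between 2 and 94 when 1 library was left out. DESeq2's Wald test called 18. DESeq2 size factors put the median log2 value of all genes at 1.18 in place of 1.54. For the inhibitor effect in macrophages against tumour cells the count of 2 became 5 with no filter, 6 with at least 20 counts, 4 with the library as a block, 0 of 551 genes tested after thinning (28 at an unadjusted p under 0.05), and between 0 and 6 when 1 library was left out. With the letter as a replicate block, 0 genes were called for actinomycin D, 12 for temperature and 6 for macrophages against tumour cells, and the p for UMIs per macrophage was 0.1111. That difference ranged from 463 to 753.8 UMIs when 1 library was left out; these runs, of 3 against 4 libraries, could not give a p below 0.05714 and so say nothing about stability. The cause of these changes was not tested, beyond the fewer genes tested after thinning. Cxcl10, at 0.48 (log2, 37C against 4C), was at -4.61 with all libraries, -5.07 without inhibitor only and -4.38 with aliquots summed, each called (edgeR adjusted p 0.0297, 0.0146 and 0.00284); its pooled counts gave a 3.87-fold higher level at 4C (1.71 to 7.95), opposite to 0.48. For single named genes in the temperature comparison, 1590 values under alternatives kept direction and side of the threshold, 216 lost the call, 69 gained one and these 3 reversed. Shallow 4C libraries limit every comparison with 4C.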
